A study of Mus musculus with 8 samples.

Results

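The Kruppel-like factors described here are 8 genes of the Klf family, Klf2, Klf3, Klf4, Klf5, Klf6, Klf7, Klf10 and Klf13, chosen by name from the 55414 genes counted in spleen neutrophils. Spleens of 4 WT mice and 4 Cxcr2-/- mice gave the neutrophils, by a positive selection for CD11b and a sort of CD45+ CD11b+ Ly6G+ F4/80- cells, with 1 RNAseq library per mouse. All mice were 10 weeks old, on the FVB background and kept under SOPF housing, and none received a treatment that the labels name. Cxcr2, the receptor for neutrophil-attracting CXC chemokines, was lost from the germline, so every cell type of the Cxcr2-/- mice lacked it and not the neutrophils alone. The comparison answers how the RNA of each factor differs between spleen neutrophils with and without Cxcr2.

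Kruppel-like factors are transcription factors that bind CACCC and GC-rich boxes through zinc fingers at the end of the protein. Klf2, Klf4, Klf5, Klf6 and Klf7 are mostly activators that recruit acetyltransferases such as p300. Klf3 is a repressor that recruits CtBP, and Klf10 and Klf13 are repressors that recruit Sin3A. In leukocytes Klf2 is known for quiescence and trafficking, Klf4 for monocyte differentiation, and Klf6 for inflammatory gene expression in macrophages. Several of them, Klf2, Klf4, Klf6 and Klf10 among them, are also known as early response genes, whose RNA is short-lived and rises quickly after a stimulus.

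The promoters of 4 members are shown because they carry the contrast of the results. Klf2 and Klf6 had the most RNA per exon length and both fell in Cxcr2-/- neutrophils, Klf4 differed within the Cxcr2-/- group, and the Klf13 test was not passed. Each sequence is 220 bases of RefSeq sequence (GRCm38.p6) that end 30 bases before the RefSeq start, written 5′ to 3′ on the strand of the gene. Capitals mark TGACG, part of the cyclic AMP response element, the MEF2 element, and CCAAT, each on either strand, so that CGTCA and ATTGG are the reverse complements. The windows are chr8:72318812-72319031 on the plus strand for Klf2, chr13:5861239-5861458 on the plus strand for Klf6, chr4:55532506-55532725 on the minus strand for Klf4 and chr7:63938946-63939165 on the minus strand for Klf13.
Klf2: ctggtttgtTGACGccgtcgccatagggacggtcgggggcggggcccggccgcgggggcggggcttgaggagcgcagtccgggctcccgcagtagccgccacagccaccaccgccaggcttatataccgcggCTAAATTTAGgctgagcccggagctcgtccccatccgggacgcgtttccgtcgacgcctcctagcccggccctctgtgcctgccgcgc
Klf6: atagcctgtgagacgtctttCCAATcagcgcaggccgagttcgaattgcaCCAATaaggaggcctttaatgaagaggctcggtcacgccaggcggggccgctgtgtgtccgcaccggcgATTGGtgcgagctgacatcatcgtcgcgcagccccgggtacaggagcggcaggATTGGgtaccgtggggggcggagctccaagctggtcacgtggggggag
Klf4: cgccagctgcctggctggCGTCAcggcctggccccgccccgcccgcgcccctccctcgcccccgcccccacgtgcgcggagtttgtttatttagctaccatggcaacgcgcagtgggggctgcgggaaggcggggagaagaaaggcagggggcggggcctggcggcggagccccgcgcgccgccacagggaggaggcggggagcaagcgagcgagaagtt
Klf13: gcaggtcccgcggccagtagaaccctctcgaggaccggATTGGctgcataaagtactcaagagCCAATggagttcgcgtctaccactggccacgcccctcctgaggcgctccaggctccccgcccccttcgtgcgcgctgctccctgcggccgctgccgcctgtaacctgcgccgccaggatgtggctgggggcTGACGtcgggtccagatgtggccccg

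The Klf2 window held 1 MEF2 element, which 2.6% of 32851 promoter windows of the same length held, and 1 TGACG, which 14.8% held. The Klf6 window held 4 CCAAT and the Klf13 window 2, and 31% of all windows held at least 1. The Klf4 window held 1 TGACG and the Klf13 window 1. GGGCGG, the core of the GC box and found in 28.5% of all windows, was in the windows of all 6 members with a RefSeq promoter entry, these 4, Klf3 and Klf7. CACCC, found in 47.8% of all windows, was in those of Klf3 and Klf7 only among these 6. None of the 6 held the whole cyclic AMP response element TGACGTCA (1.14% of all windows), the AP-1 motif TGANTCA (6.12%) or the CArG box of serum response factor (1.3%). TGACG lies within TGACGTCA, all motifs were searched on both strands, and a match of letters is no evidence of binding.

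Between 34220182 and 46233555 counts lay on genes in the WT libraries and between 37549648 and 43789253 in the Cxcr2-/- libraries. Cxcr2 RNA was at 1719 to 2252 CPM in the WT libraries and 12.9 to 20.7 CPM in the Cxcr2-/- libraries, where CPM is the count on a gene scaled to the TMM-normalized library size. The markers that define neutrophils were present in all libraries. Ly6g was at 226 ± 41.5 CPM (SD, n = 4) in WT and 539 ± 50.5 CPM in Cxcr2-/- libraries, and Itgam, which encodes CD11b, at 417 ± 27.7 and 474 ± 51.7 CPM. The top 10 genes by count held 9.45% to 11.6% of each WT library and 17% to 19.2% of each Cxcr2-/- library. Reads that met no gene made up 31.4% to 41.5% in WT against 26.7% to 31.9% in Cxcr2-/- mice, and the part of either difference in the changes given below was not tested. Of 6 neutrophil identity genes 3 rose and 2 fell, beside 23.7% higher and 21% lower of all genes tested. Ptprc, which encodes the sort marker CD45, fell from 4350 ± 218 CPM in WT to 2550 ± 227 CPM in Cxcr2-/- libraries. Csf3r fell from 6960 ± 462 to 3330 ± 147 CPM. Values in the 4 libraries of a group are given below in the order of replicates 1 to 4, which have no order of their own.

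All 8 Kruppel-like factors passed the filter on low counts, and 6 of the 8 passed the test. Klf2, Klf3, Klf6 and Klf10 fell in Cxcr2-/- neutrophils, Klf5 and Klf7 rose, and Klf4 and Klf13 did not pass. Each gene was tested with the quasi-likelihood method of edgeR and p-values were adjusted after Benjamini and Hochberg over 16778 genes, and a gene passed with an adjusted p under 0.05. Of all genes tested, 44.7% passed, 21% passed as lower and 23.7% as higher, so a large part of the transcriptome differed and 4 lower and 2 higher of 8 must be read against these shares. With upper-quartile normalization in place of TMM, the counts over all genes were 4391 lower and 3076 higher in place of 3526 and 3969, and the members' calls were as above. The median log2 fold change (Cxcr2-/- over WT) was -0.62 over the 8 members and 0.01 over all genes tested. With a change of at least 1.5-fold asked as well, the same 4 genes were lower and Klf5 was higher, beside 15.7% of all genes in each direction. The CPM of the 2 groups did not overlap for any of the 6 genes that passed, beside 19.1% of all genes without overlap and lower and 22.5% without overlap and higher. In RNA of sorted bulk cells, fewer cells with a transcript and less RNA per cell cannot be told apart.

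**Figure D1:**
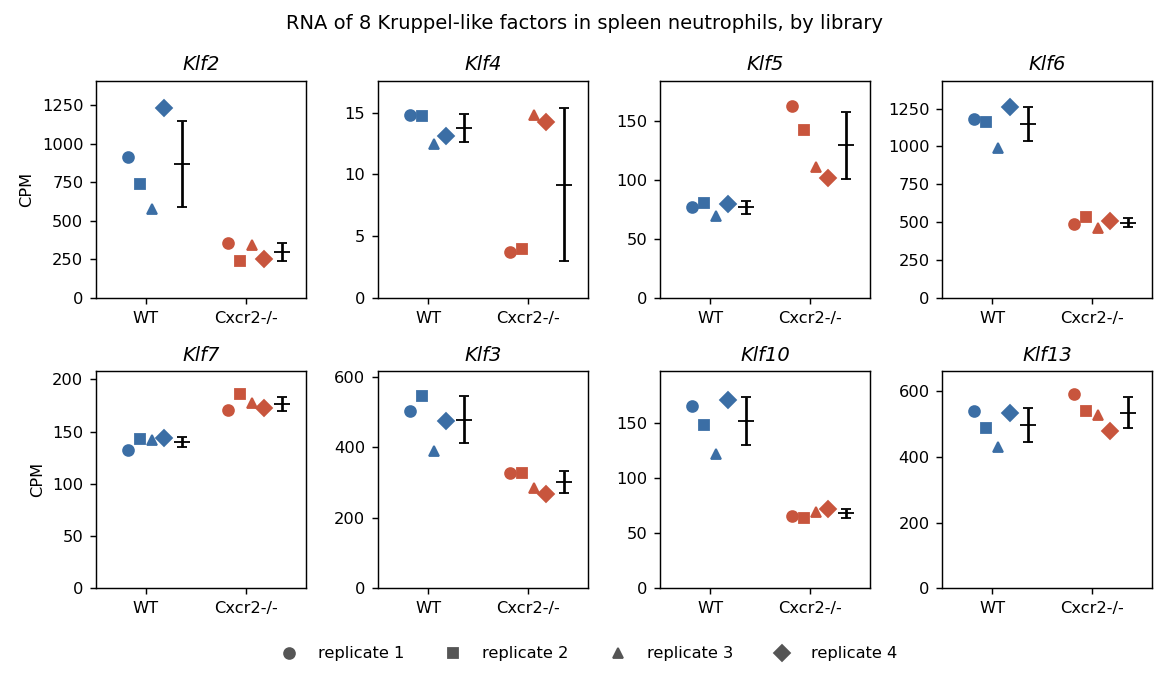
RNA of the 8 Kruppel-like factors in CPM (vertical axes, each from 0) in 4 WT and 4 Cxcr2-/- libraries, 1 point per mouse with a marker for its replicate number, beside the mean and SD of each group. Klf2, Klf6, Klf3 and Klf10 sit lower in all Cxcr2-/- libraries, Klf5 and Klf7 higher, and the Cxcr2-/- libraries of Klf4 lie at 3.69 and 3.98 CPM or at 14.8 and 14.2 CPM.

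Among the activators, Klf2 fell the most. Klf2 (ENSMUSG00000055148, chr8:72319033-72321656, plus strand of GRCm38) was at 917, 740.5, 579.6 and 1231 CPM in the WT libraries and 359, 237, 342 and 255.5 CPM in the Cxcr2-/- libraries. The WT libraries varied more than those of any other member in either group on the scale of CPM, and the lowest of them still lay above the highest Cxcr2-/- library. The mean went from 867 ± 279 to 298 ± 61.3 CPM (SD, n = 4 each). The log2 fold change was -1.54 ± 0.21 (SE) and the adjusted p 9.17e-05.

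Klf6 (ENSMUSG00000000078, chr13:5861482-5870394, plus strand), first known as core promoter element binding protein, had the strongest test of the 8. It was at 1178, 1163, 990 and 1261 CPM in WT and 490.5, 531.1, 463.9 and 504.9 CPM in Cxcr2-/- neutrophils. Every Cxcr2-/- library was close to the group mean of 498 ± 28.1 CPM, against 1148 ± 114 CPM in WT. The log2 fold change was -1.21 ± 0.11 (SE) and the adjusted p 2.62e-06.

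Klf4 (ENSMUSG00000003032, chr4:55527143-55532466, minus strand), a factor of monocyte differentiation and one of the pluripotency factors, did not pass the test. It was at 14.8, 14.7, 12.5 and 13.1 CPM in WT and 3.69, 3.98, 14.8 and 14.2 CPM in Cxcr2-/- neutrophils. Replicates 1 and 2 of the Cxcr2-/- group lay under all WT libraries and replicates 3 and 4 within or just above the WT range, so that the groups overlapped. The log2 fold change was -0.58 ± 0.38 (SE) and the adjusted p 0.237, and its values with 1 library left out ran from -0.91 to -0.32, with no adjusted p under 0.0779 in any alternative.

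Klf5 (ENSMUSG00000005148, chr14:99298691-99315036, plus strand), a factor of proliferating and epithelial cells and of granulocyte differentiation, was higher in Cxcr2-/- neutrophils. It was at 77.1, 80.3, 69.1 and 79.9 CPM in WT and 162, 142, 111 and 101 CPM in Cxcr2-/- neutrophils. The Cxcr2-/- libraries spread more than the WT libraries, with means of 129 ± 28.1 and 76.6 ± 5.24 CPM, and all of them lay above the WT range. The log2 fold change was 0.75 ± 0.14 (SE) and the adjusted p 0.000711.

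Klf7 (ENSMUSG00000025959, chr1:64029447-64122282, minus strand), known for neuronal and adipocyte differentiation, rose by less than 1.5-fold. It was at 132.5, 143, 141 and 143.5 CPM in WT and 171, 186, 177 and 172.5 CPM in Cxcr2-/- neutrophils. The spread within each group was small, 140 ± 5.16 and 176 ± 6.76 CPM, and the log2 fold change was 0.33 ± 0.08 (SE) and the adjusted p 0.00486. Klf7 lies 10.03 Mb from Cxcr2 on the same chromosome, and whether the strain origin of the sequence there differs between the groups was not tested. In GENCODE M21, 39.3% of its exon bases are overlapped by Gm26649 on the opposite strand, and as the strand setting of the counting is not given in the sources used here, its reads and those of Gm26649 cannot be told apart.

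Among the repressors, Klf3 and Klf10 fell and Klf13 did not pass. Klf3 (ENSMUSG00000029178, chr5:64803388-64832901, plus strand), also called basic Kruppel-like factor, was at 504, 546, 390 and 476 CPM in WT and 328, 328, 284 and 268.5 CPM in Cxcr2-/- neutrophils. All Cxcr2-/- libraries lay under the lowest WT library. The means were 479 ± 65.8 and 302 ± 30.5 CPM, and the log2 fold change was -0.66 ± 0.12 (SE) and the adjusted p 0.000674.

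Klf10 (ENSMUSG00000037465, chr15:38291463-38300706, minus strand), also called TGFβ-inducible early gene, was at 165, 148.5, 122 and 171 CPM in WT and 66, 63.9, 69.5 and 72.2 CPM in Cxcr2-/- neutrophils. The Cxcr2-/- libraries differed little from each other, at 67.9 ± 3.67 CPM against 152 ± 21.8 CPM in WT. The log2 fold change was -1.16 ± 0.11 (SE) and the adjusted p 4.75e-06.

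Klf13 (ENSMUSG00000052040, chr7:63886351-63938915, minus strand), a regulator of Ccl5 in T cells, was at 540, 488, 430 and 535 CPM in WT and 592, 539, 529 and 480 CPM in Cxcr2-/- neutrophils. The groups overlapped. The log2 fold change was 0.10 ± 0.11 (SE) and the adjusted p 0.467, and its sign turned with upper-quartile normalization (-0.02, adjusted p = 0.907).

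**Figure D2:**
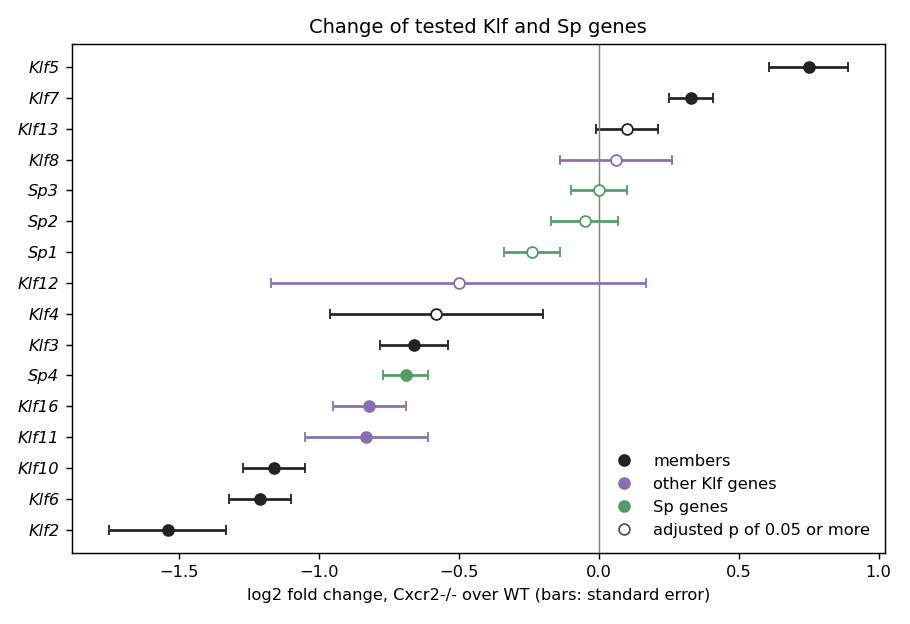
Log2 fold change, Cxcr2-/- over WT, of each tested Klf and Sp gene (horizontal axis) with bars for the standard error, filled where edgeR's adjusted p is under 0.05 and open where it is not. Klf2 has the lowest value at -1.54 and Klf5 the highest at 0.75.

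WT replicate 3 had the lowest CPM of the WT group for 7 of the 8 members, with TMM and with total counts alike, and Klf7 was lowest in WT replicate 1. No library stood apart from its group for any member by Dixon's test over 16 groups of 4, in which the highest ratio of gap to range was 0.808, for Klf7 in WT. This test looks for a single extreme library and cannot show a split into pairs. For Klf4 in Cxcr2-/- libraries, which lay in such pairs, the ratio was 0.0494.

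Levels of different genes can be compared only per length of exon, where Klf2 and Klf6 led in both groups and Klf4 was last. In WT neutrophils Klf2 was highest at 469 ± 151 CPM per kb of merged exon (SD, n = 4), followed by Klf6 at 261 ± 25.9, and the lowest Klf2 library (314) lay above the highest Klf6 library (287). Klf13 was next at 66.1 ± 6.82 CPM per kb, then Klf3 at 42.6 ± 5.85 and Klf10 at 36.3 ± 5.22, and the libraries of Klf3 and Klf10 overlapped, so that these neighbours did not differ beyond their spread. Klf7 at 17.2 ± 0.634, Klf5 at 14.7 ± 1.01 and Klf4 at 4.51 ± 0.378 CPM per kb had the lowest levels, without overlap between them. In Cxcr2-/- neutrophils Klf2, Klf6, Klf13 and Klf3 kept ranks 1 to 4, with 162 ± 33.2, 113 ± 6.39, 71 ± 6.1 and 26.9 ± 2.71 CPM per kb. Klf5 was then at 24.8 ± 5.41, with libraries that overlapped those of Klf3 and of Klf7 (21.7 ± 0.831), and Klf10 moved from rank 5 to rank 7 at 16.3 ± 0.878 CPM per kb. Klf4 was lowest at 3.01 ± 2.02 CPM per kb. With exons of the basic transcripts only, Klf3 was at 88.9 CPM per kb in WT and above Klf13 at 74.7, so the order of Klf3 and Klf13 in WT depends on the exons counted.

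The summed level of the 8 members was 912 ± 189 CPM per kb in WT and 439 ± 35.9 CPM per kb in Cxcr2-/- neutrophils (n = 4 each), and the libraries of the groups did not overlap (695 to 1150 and 404 to 483). Klf2 made up 45.2% to 58.2% of the sum in WT and 30.8% to 41.1% in Cxcr2-/- libraries. Klf13 made up 6.21% to 8.21% in WT and 15.6% to 17.2% in Cxcr2-/- libraries, although its own level did not pass the test. Klf5 went from a mean of 1.65% to 5.64% of the sum and Klf7 from 1.95% to 4.98%, while Klf10 was at 4.02% and 3.73%. Shares of a sum depend on each other and were not tested.

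**Figure D3:**
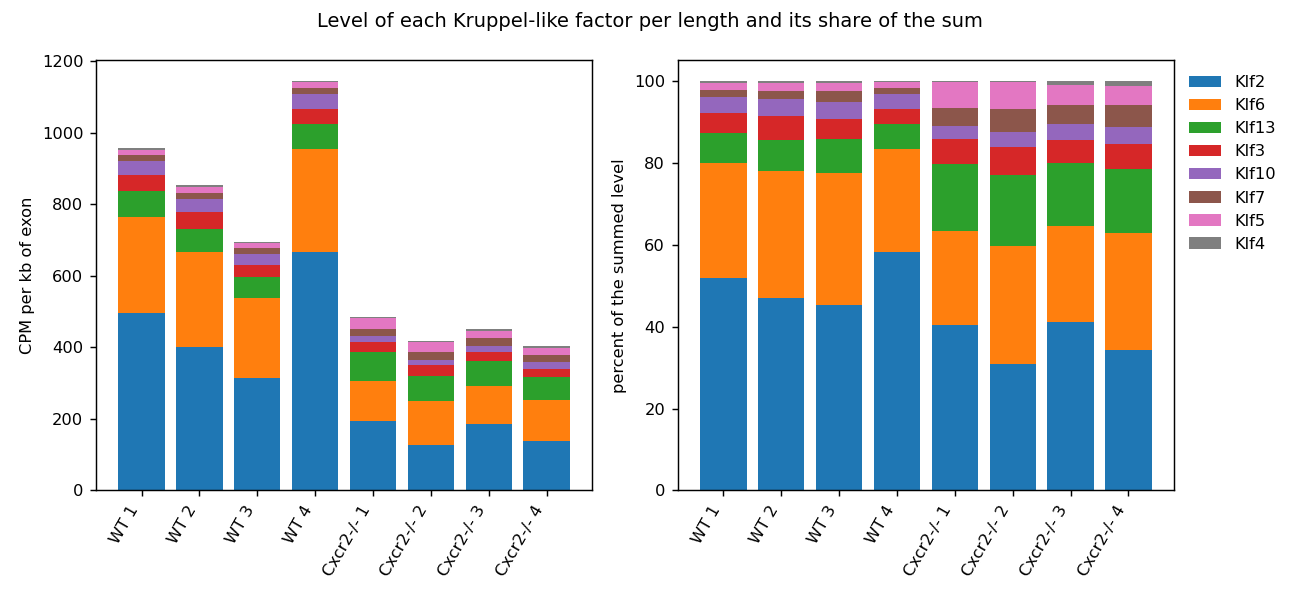
Level of the 8 Kruppel-like factors as CPM per kb of merged exon, stacked (left), and as percent of their sum (right), in each of 4 WT and 4 Cxcr2-/- libraries. Klf2 and Klf6 take most of the sum in all libraries, and the sum is 695 to 1150 in WT and 404 to 483 CPM per kb in Cxcr2-/- libraries.

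For each member, the protein-coding gene with the most similar profile over the 8 libraries was found among 4103 well expressed genes, as the root mean square difference of log2 CPM centred on each gene's mean. Klf6 and Klf10 shared the same nearest gene, Rasa3, a GTPase-activating protein for Ras and Rap, at 0.0661 and 0.0658. The nearest gene was Ier5, an immediate early gene, for Klf2 (0.209), Crebl2 for Klf3 (0.074), Mapkapk3 for Klf5 (0.0432), Agfg1 for Klf7 (0.0402) and Tacc1 for Klf13 (0.0435). Klf4 was nearest to Apoe, the lipid carrier of macrophages, at 0.237, the largest distance of the 8. Apoe was at 13.1, 13, 47.7 and 32.9 CPM in the Cxcr2-/- libraries, high in replicates 3 and 4 like Klf4.

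Of 8 other Klf genes, 4 were tested, and 2 of them fell. Klf11, a Sin3A-binding repressor close to Klf10, was at 56, 75.1, 54.5 and 48 CPM in WT and 24, 21.3, 44.2 and 41.8 CPM in Cxcr2-/- mice. Its log2 fold change was -0.83 ± 0.22 (SE) and the adjusted p 0.00873. As with Klf4, replicates 1 and 2 of the Cxcr2-/- group were lower than replicates 3 and 4, but here all of them lay under the WT range. Klf16, also a Sin3A-binding repressor, went from 12.8 ± 1.68 to 7.24 ± 0.585 CPM (log2 fold change -0.82, adjusted p = 0.000281). Klf8 (2.49 and 2.6 CPM, adjusted p = 0.819) and Klf12 (0.254 and 0.181 CPM, adjusted p = 0.58) did not pass. Klf1, the erythroid factor, and Klf15 had at most 6 counts in any library, and Klf14 and Klf17 had 0 counts in all 8. Of 9 Sp genes, which bind the same GC boxes, 4 were tested and 1 fell. That was Sp4, from 74.8 ± 1.65 to 46.2 ± 3.56 CPM (log2 fold change -0.69, adjusted p = 3.15e-05). Sp1 did not pass (log2 fold change -0.24, adjusted p = 0.0692), nor did Sp3, at 285 CPM in both groups. The Sp genes lower were 2 in place of 1 under total counts, upper-quartile normalization, the 10-count filter, the covariate for other cell types or protein-coding genes only, and without WT replicate 3 or Cxcr2-/- replicate 2. The median log2 fold change was -0.66 over the 4 other Klf genes and -0.14 over the 4 Sp genes, beside 0.01 over all genes. Of all genes tested, 21% were lower and 23.7% higher.

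Of 7 genes of the corepressors that Klf3, Klf10 and Klf13 recruit, 3 rose, none fell, and the median log2 fold change was 0.37. These counts, and those of the coactivators and ubiquitin ligases below, stand beside 21% lower and 23.7% higher of all genes tested. Ctbp1, which encodes the corepressor of Klf3, rose from 84 ± 9.21 to 170 ± 32.2 CPM (log2 fold change 1.02, adjusted p = 5.83e-05), and Ctbp2 from 26.1 ± 1.35 to 38 ± 1.78 CPM (0.54, adjusted p = 0.000233). Hdac1, a histone deacetylase of these complexes, rose as well (0.41, adjusted p = 0.00349). Sin3a (0.01, adjusted p = 0.897) and Sin3b (-0.26, adjusted p = 0.0966) did not pass, and 1 corepressor gene passed as lower under total counts, upper-quartile normalization, the 10-count filter, the covariate or protein-coding genes only, and without Cxcr2-/- replicate 1. Of 3 coactivators Kat2b, an acetyltransferase, fell (-0.60, adjusted p = 0.000164), and Ep300 and Crebbp did not pass (adjusted p = 0.442 and 0.494). Of 4 ubiquitin ligases known to act on Kruppel-like factors, Smurf1 rose (0.74, adjusted p = 0.000167) and Fbxw7 fell (-0.29, adjusted p = 0.0113), with 2 lower in place of 1 under upper-quartile normalization.

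The ERK5 and MEF2 route is a known inducer of Klf2 and Klf4 in endothelium. Of 7 genes, 4 fell and 2 rose, with a median log2 fold change of -0.57, beside 21% lower and 23.7% higher of all genes tested. Mef2a was at 166 to 187 CPM in WT and 102 to 124 CPM in Cxcr2-/- mice, with a log2 fold change of -0.60 and an adjusted p of 0.000223. Mef2c (-0.78, adjusted p = 0.0138), Mef2d (-0.57, adjusted p = 0.00269) and the upstream kinase gene Map3k3 (-0.66, adjusted p = 0.000582) fell as well, whereas Mapk7, which encodes ERK5 itself, rose (0.50, adjusted p = 0.00509). Map2k5, the kinase between them, rose (0.46, adjusted p = 0.0283), but 1 gene of this list in place of 2 was higher under total counts, under upper-quartile normalization, with protein-coding genes only, and without WT replicate 1, 2 or 4 or Cxcr2-/- replicate 3. Foxo1 did not pass (-0.43, adjusted p = 0.316). TGFβ is a known inducer of Klf10 and Klf11, and all 7 of its genes listed fell, with a median of -0.64. The genes lower were 6 in place of 7 with no filter and without WT replicate 3 or 4 or Cxcr2-/- replicate 1, 2 or 4. They were 5 without WT replicate 1 or Cxcr2-/- replicate 3. Tgfb1, the ligand, went from 222 ± 19.1 to 132 ± 12.3 CPM (-0.75, adjusted p = 6.87e-05). The receptor genes Tgfbr1 (-0.64, adjusted p = 0.000225) and Tgfbr2 (-0.64, adjusted p = 0.000406) and the signal transducer Smad3 (-0.64, adjusted p = 0.000382) followed.

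Of 10 genes known as targets of Kruppel-like factors in other cells, 9 were tested, 4 fell and 1 rose, with a median log2 fold change of -0.44. Of all genes tested, 21% were lower and 23.7% higher. With the covariate for markers of other cell types, 3 were lower and 2 higher. Thbd, which encodes thrombomodulin and is activated by Klf2 in endothelium, went from 56.5 ± 13.9 to 10 ± 2.04 CPM (log2 fold change -2.49, adjusted p = 7.25e-07). Itgb7, the integrin chain that Klf2 controls in lymphocytes, went from 54.3 ± 9.58 to 14.8 ± 4.98 CPM (-1.87, adjusted p = 2.6e-05). Ccnd1, which encodes cyclin D1, fell (-1.27, adjusted p = 0.0139) with WT libraries from 3.04 to 13.7 CPM that overlapped the Cxcr2-/- range of 2.29 to 3.67 CPM. Lgals3, which encodes galectin 3 and is repressed by Klf3, rose from 304 ± 45.5 to 661 ± 69.1 CPM (1.12, adjusted p = 1.81e-05). S1pr1, the exit receptor of lymphocytes controlled by Klf2, was at 3.73 ± 1.16 and 2.87 ± 0.719 CPM and did not pass (-0.38, adjusted p = 0.255). These genes have other regulators, and their response to any member was not tested.

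**Figure D4:**
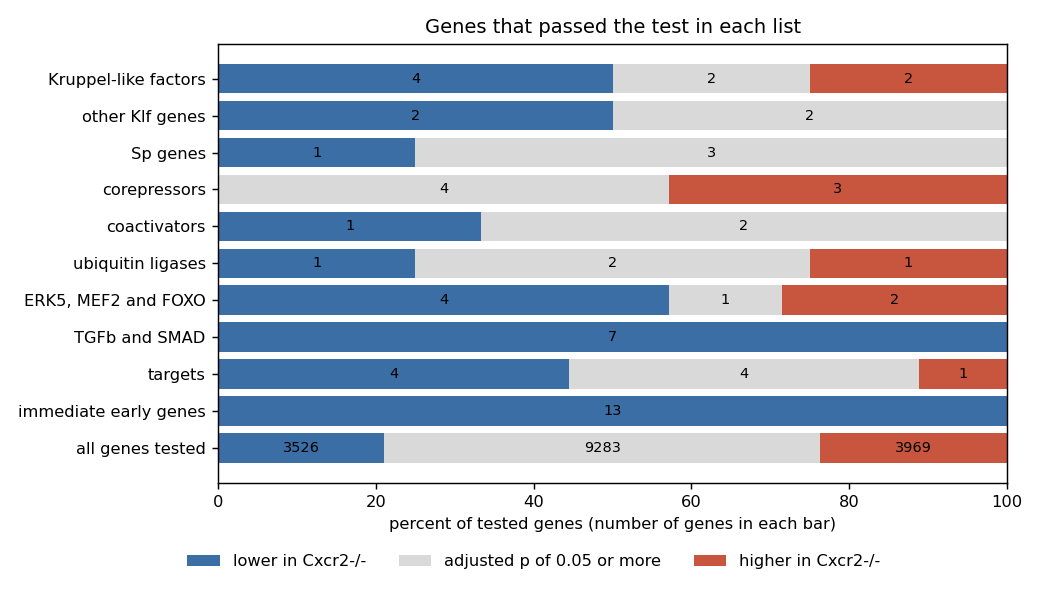
Percent of the tested genes of each list (horizontal axis) that were lower, higher or not called in Cxcr2-/- neutrophils, with the number of genes in each bar, and all genes tested in the lowest row. All 7 genes of the TGFβ list and all 13 immediate early genes were lower, and 4 of 8 Kruppel-like factors.

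Genes outside the family differed along with the members that fell. All 13 immediate early genes listed, which are induced within a short time of a stimulus, fell, with a median log2 fold change of -2.35. Their summed level was 13600 to 15000 CPM in WT and 2340 to 4520 CPM in Cxcr2-/- libraries. Egr1, at 771 ± 126 CPM in WT, was at 33.2, 21.8, 130 and 78.9 CPM in the Cxcr2-/- libraries, the higher values again in replicates 3 and 4. All 11 genes of neutrophil precursors rose, with a median of 1.57 and a sum of 20200 to 24700 CPM in WT and 47500 to 69100 CPM in Cxcr2-/- libraries. Almost all of the precursor sum was Ltf, Ngp, Lcn2 and Camp. Beside these counts, 21% of all genes tested were lower and 23.7% higher. The part of the immediate early and precursor differences in the values of Klf2, Klf3, Klf6 and Klf10 was not tested.

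Markers of other cell types differed in level from list to list. Sums ran from a few CPM for erythroid, platelet and NK cell genes to those of the monocyte and macrophage genes, where Csf1r alone was at 442 CPM in WT. No list of 8 passed an exact permutation test, two-sided, of its mean log2 (CPM + 1) (lowest p = 0.0571, for B cell genes, adjusted p = 0.4 over 8 lists, where 0.0286 is the smallest p that 4 against 4 can give). After adjustment over 8 lists a single list could not have passed even with full separation of the groups, so this test does not show that the lists were alike. The monocyte and macrophage genes summed to 450 to 548 CPM in WT and 207 to 307 CPM in Cxcr2-/- libraries, without overlap. The permutation test used their mean log2 (CPM + 1) and not this sum, and gave an adjusted p of 0.4. Of these 7 genes Csf1r (442 ± 41.1 and 232 ± 42.1 CPM, edgeR adjusted p = 0.000108) and Adgre1, which encodes F4/80 (30.6 ± 4.59 and 12.3 ± 3.17 CPM, edgeR adjusted p = 5.76e-05), fell. The other 5 did not pass, and among them Cx3cr1 had the higher mean in Cxcr2-/- libraries (6.89 ± 2.01 and 8.8 ± 5.22 CPM). Csf1r made up most of the sum in every library. The B cell genes summed to 30.7 to 68.4 and 15.3 to 35.2 CPM, and 4 of 6 fell, beside 21% lower of all genes tested. The T cell sum was 96.8 to 117 and 90.8 to 139 CPM. It was almost all Cd3d, at 80.1 to 110 and 87.3 to 136 CPM. Cd3e, Cd3g, Cd8a and Lck had means of at most 0.937 CPM, and Cd4 fell (6.16 ± 5.52 and 1.34 ± 0.564 CPM, adjusted p = 0.0075). NK cell genes summed to 0.463 to 6.47 and 1.69 to 3.82 CPM and dendritic cell genes to 5.64 to 24.4 and 3.76 to 6.51 CPM. Eosinophil genes summed to 48.8 to 68.9 and 37.6 to 64.1 CPM, a sum that joins opposite changes. Siglecf (48.1 ± 8.78 and 32.5 ± 2.86 CPM, edgeR adjusted p = 0.00321) and Ccr3 (11 ± 1.85 and 4.95 ± 2.27 CPM, 0.00464) fell. Epx (0.332 ± 0.373 and 2.25 ± 2.02 CPM, 0.00812) and Prg2 (1.21 ± 1.72 and 8.74 ± 6.13 CPM, 0.012) rose. Erythroid genes summed to 2.11 to 4.57 and 1.72 to 12 CPM and platelet genes to 3.96 to 5.72 and 2.74 to 4.65 CPM, and no gene of the 8 lists was at 0 in all libraries. A covariate for these markers was the mean log2 (CPM + 1) over all 42 of them. It was 1.52 to 2.08 in WT and 1.28 to 1.97 in Cxcr2-/- libraries. As it averages all lists, it cannot account for the difference in the monocyte and macrophage genes alone. With this covariate the log2 fold changes were -1.61 for Klf2, -1.24 for Klf6, -1.16 for Klf10 and -0.71 for Klf3. They were 0.62 for Klf5 and 0.31 for Klf7, and all 6 passed.

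Within the Cxcr2-/- group 4 of these 8 lists split the libraries as Klf4 did, and the NK cell list by a small margin. In replicates 1 to 4, with Klf4 at 3.69, 3.98, 14.8 and 14.2 CPM, the erythroid genes summed to 1.92, 1.72, 11.8 and 12 CPM, the monocyte and macrophage genes to 220, 207, 305 and 307 CPM, the B cell genes to 19, 15.3, 28.9 and 35.2 CPM, and the eosinophil genes to 37.6, 38.5, 53.5 and 64.1 CPM. Each of these sums was lower in replicates 1 and 2 than in 3 and 4. The T cell sum, almost all of it Cd3d, ran the other way, at 139, 117, 98.2 and 90.8 CPM. The NK cell sum was at 3.41 and 1.69 CPM in replicates 1 and 2 and at 3.53 and 3.82 CPM in 3 and 4. The dendritic cell and platelet sums did not separate these libraries. The split was not confined to these lists. In the same order Elane, a neutrophil precursor gene, was at 12, 14.5, 55.5 and 93.2 CPM. The immediate early sum was 3040, 2340, 4520 and 3990 CPM. The neutrophil precursor sum, almost all of it Ltf, Ngp, Lcn2 and Camp, ran the other way, at 69100, 57900, 57400 and 47500 CPM. In the Cxcr2-/- libraries Ltf had a mean of 21100 CPM against 43.8 CPM for Elane, so the sum does not show the course of Elane. Over all genes the chi-square per gene was 36 between replicates 1 and 2 and 27.8 between 3 and 4, and 47 to 99 for the other pairs. The part of other cells or of these differences in the Klf4 values was not tested. With the covariate for these markers the log2 fold change of Klf4 was -0.39 (adjusted p = 0.254).

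**Figure D5:**
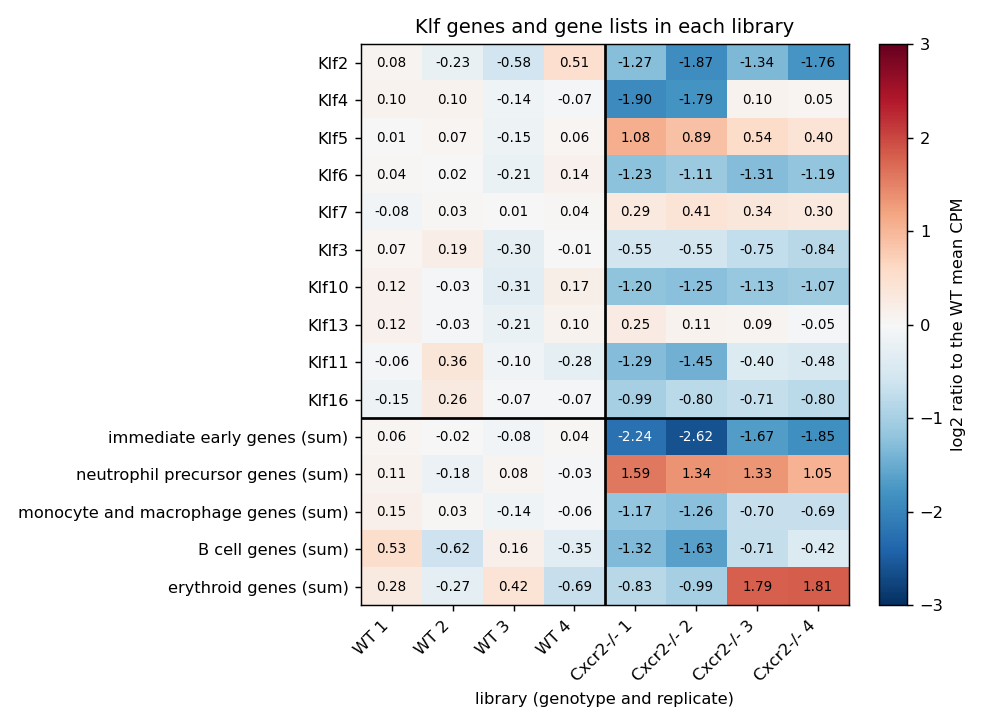
Log2 ratio of each library's CPM to the WT mean (colour, with the value in each cell) for 10 Klf genes and, under the line, for the summed CPM of 5 gene lists, in 4 WT and 4 Cxcr2-/- libraries. Klf4 is at -1.90 and -1.79 in Cxcr2-/- replicates 1 and 2 and at 0.10 and 0.05 in replicates 3 and 4, and the erythroid sum at -0.83 and -0.99 and at 1.79 and 1.81.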

How the data were processed

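RNA of sorted spleen neutrophils from 4 WT and 4 Cxcr2-/- mice was depleted of ribosomal RNA and made into directional libraries. The authors used STAR to align trimmed read pairs to mm10 and HTSeq to count them. The deposited values are whole-number counts per gene by Ensembl identifier, without normalization. The versions, strand setting and annotation of the counting are not given in the sources used here. Symbols, positions and exon lengths came from GENCODE M21 (GRCm38), which has an entry for 52081 of the 55414 identifiers. The identifiers carry later version numbers, so gene bounds may differ.

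Counts were tested with edgeR 4.0.16 in R 4.3.3 (quasi-likelihood test, TMM normalization, filterByExpr, Benjamini-Hochberg adjustment over 16778 genes), and a gene was called at an adjusted p under 0.05. CPM is the count scaled to the TMM-normalized library size. DESeq2 1.42.0, other normalizations and filters, a replicate block, a covariate for markers of other cell types and each library left out in turn were alternatives. No pair of replicates was alike within sampling noise (a chi-square of 23.9 to 99 per gene). On simulated counts over 16778 genes, of which 200 were changed, edgeR recovered 87.63% of genes changed 4-fold and 54.37% of those changed 2-fold. In the data 44.7% of genes were called, so these recovery rates need not hold there.

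The members and lists were chosen with earlier results of these data known. Named were all 8 members, up to 4 called and 2 uncalled genes of each list, and the gene nearest to each member in profile. Genes beyond this rule were chosen after their values were seen. Lists also hold genes that are counted but not reported here by name.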

Additional observations from a re-analysis of the deposited data

How the results depend on the processing

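Under 17 alternatives the 6 called members kept their direction and stayed past the threshold, and Klf4 and Klf13 stayed short of it. Klf13 changed sign with upper-quartile normalization (-0.02), a scaling that moved the median log2 fold change of all genes from 0.01 to -0.11. With a change of at least 1.5-fold required, 1 member was higher in place of 2 and 2628 genes in place of 3969, since fewer genes meet both limits. With exon lengths of basic transcripts, an alternative chosen after seeing the data, Klf3 was at 88.9 CPM per kb in WT and 56.1 in Cxcr2-/-, Klf13 at 74.7 and 80.2, and Klf10 at 17.7 in Cxcr2-/- neutrophils. With 1 library left out, log2 fold changes ran from -1.71 to -1.32 for Klf2, -1.29 to -1.16 for Klf6, -1.27 to -1.09 for Klf10, -0.77 to -0.62 for Klf3, 0.63 to 0.84 for Klf5, 0.31 to 0.36 for Klf7 and 0.02 to 0.15 for Klf13.

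Replicate numbers name different animals, and the deviations of same-numbered libraries correlated at 0.15, -0.19, 0.24 and -0.31. WT replicates 1 and 3 correlated best with the Cxcr2-/- library of the same number, WT replicates 2 and 4 with another. Whether same-numbered libraries were prepared together is not given in the sources used here, and 4 correlations cannot settle it. With the replicate block 4 members were lower and 2 higher, as without it, and over all genes 3349 were lower and 3719 higher.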
